A study of Mus musculus with 6 samples.

Results

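The genes described here encode the inhibin and activin subunits (Inha, Inhba and Inhbb), the activin-binding proteins follistatin and follistatin-like 3 (Fst and Fstl3), activin receptors (Acvr1b, Acvr2a and Acvr2b), and anti-Müllerian hormone with its receptor (Amh and Amhr2). They were chosen by name, with earlier results of these data known. Their probe sets are all those that the annotation of the array assigns to 1 of these gene symbols alone. All 10 genes were measured, among 18194 genes in all, by 19 of the 45101 probe sets of the array. Expression was measured on 6 single-colour arrays, 1 for each sample of cumulus cells, the somatic cells that surround the oocyte, taken from wild-type mice. The hCG-6h group (3 samples) came from females aged 21 days at the start and labelled as 23 days old, given 5 IU of eCG (equine chorionic gonadotropin, which makes follicles grow) and, after 46 h, 5 IU of human chorionic gonadotropin (hCG), the ovulatory hormone, for 6 h. The hCG-0h group (3 samples), of the same ages, received the same eCG for 46 h and no hCG. Both groups are wild type, each sample pools cells stripped from 50 cumulus-oocyte complexes, and all were handled with milrinone, a phosphodiesterase inhibitor that keeps oocytes from maturing. Samples 2 and 3 of hCG-6h are titled 6 h but described as 7 h and 8 h, and were kept in that group. Nothing in the labels says whether the samples came from separate mice, so the tests measure only the spread among these arrays, which may be technical. No group was kept for the further 6 h without hCG, so the hormone and the time cannot be told apart.

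Inhibins and activins are dimers built from shared subunits. The alpha subunit joined to a beta subunit makes an inhibin, which lowers the secretion of follicle-stimulating hormone (FSH) by the pituitary, whereas a pair of beta subunits makes an activin, which raises it and acts within the follicle. Activins bind a type II receptor, which recruits the type I receptor ACVR1B, and the signal passes to the nucleus through SMAD2 and SMAD3, while follistatin holds activin away from its receptors. Anti-Müllerian hormone, a product of the granulosa cells of growing follicles, signals through its own type II receptor, AMHR2, and through SMAD1, SMAD5 and SMAD9.

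Inhbb and Amhr2 fell at hCG-6h in every probe set that measures them, by 3.47-fold to 6.29-fold, and none of the other 8 genes passed the test with a change of 2-fold. Inha and Inhba did not pass the test, and their samples at hCG-6h overlapped those at hCG-0h. Fst passed narrowly, with a fall of 1.33-fold. Acvr2b passed as higher in its brightest probe set when tested over genes. In the test over all 34958 probe sets that one missed and another passed as lower, so no direction is given for Acvr2b. Amh averaged 2.04-fold lower and Fstl3 1.71-fold higher, without passing. In all, 3 of the 10 genes were lower and 1 was higher (limma, adjusted p under 0.05). Among all genes 10.5% were lower and 10.8% higher, together 21.3%. The groups did not overlap in 4 of the 10 genes, against 37.9% of all genes, so separation of the samples was about as frequent here as elsewhere on the array. The median log2 change was -0.08 over the 10 genes and 0.01 over all genes.

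**Figure D1:**
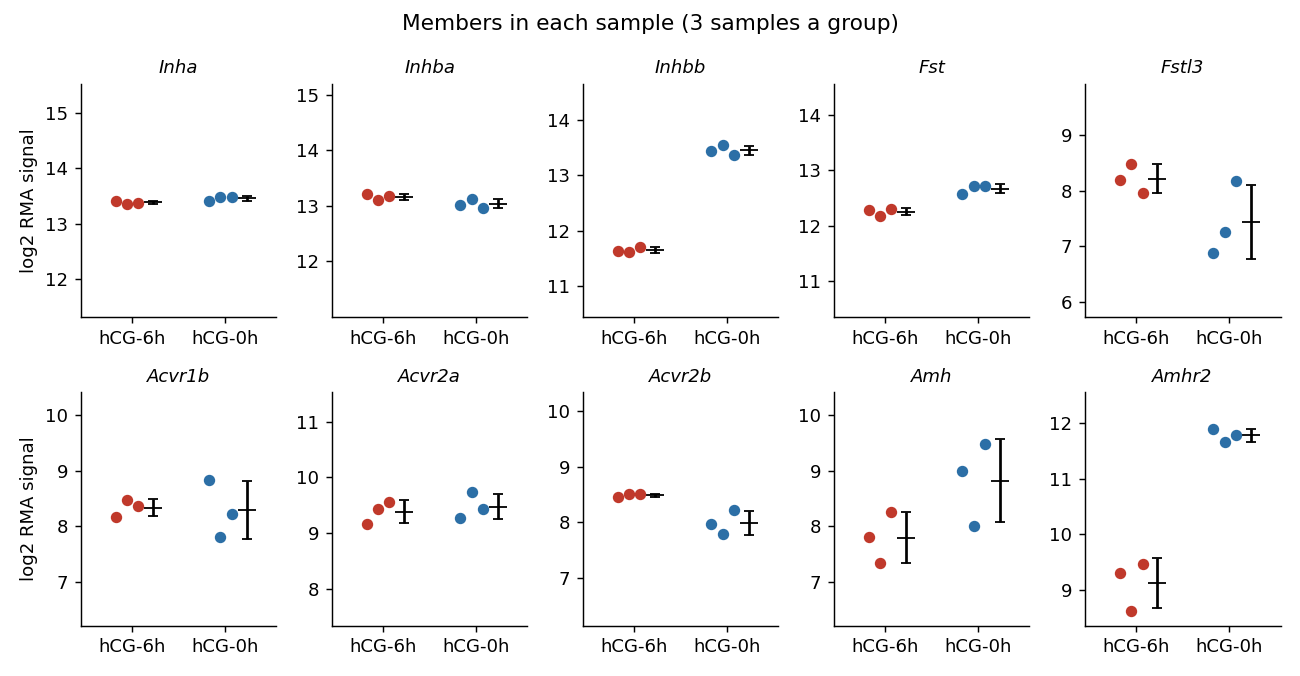
Log2 RMA signal of each of the 10 genes in the 3 hCG-6h samples (red) and the 3 hCG-0h samples (blue), read from the brightest probe set of each gene. Black bars give the mean and SD, and every panel spans the same height on the log2 scale. Inhbb and Amhr2 lie far lower at hCG-6h, whereas Inha and Inhba overlap between the groups.

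The start regions of the 2 genes that fell most are shown because both moved the same way. These are the 250 bases before the start of each gene in RefSeq (GRCm38.p6), 5′ to 3′ on the strand of the gene, at chr1:119422249-119422498 on the minus strand for Inhbb and at chr15:102445117-102445366 on the plus strand for Amhr2. Capitals mark a motif.
Inhbb: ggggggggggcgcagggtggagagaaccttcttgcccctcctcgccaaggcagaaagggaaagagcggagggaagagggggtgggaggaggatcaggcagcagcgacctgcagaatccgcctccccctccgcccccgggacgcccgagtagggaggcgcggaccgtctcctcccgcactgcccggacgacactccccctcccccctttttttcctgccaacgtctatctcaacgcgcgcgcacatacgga
Amhr2: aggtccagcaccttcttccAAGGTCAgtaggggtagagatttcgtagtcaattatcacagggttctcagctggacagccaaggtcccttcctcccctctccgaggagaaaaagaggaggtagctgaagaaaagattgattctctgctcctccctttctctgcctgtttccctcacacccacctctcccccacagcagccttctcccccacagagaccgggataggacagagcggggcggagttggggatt
The RefSeq span of Amhr2 begins 365 bases before this start, so at least part of the gene has another annotated start upstream. Windows of 250 bases before to 50 after the start were matched for 8 of the 10 genes, all but Fst and Amh, and were searched on both strands for 4 motifs. The motif in capitals is AAGGTCA, the letters bound by the NR5A nuclear receptors, which begins 231 bases before the start of Amhr2. It stood in 1 of the 8 windows and in 4.72% of all 32851 windows. The letters CAGACA, a form of the SMAD-binding element, stood in the window of Fstl3 alone, against 21.0% of all windows. Neither the cyclic AMP response element TGACGTCA (1.79% of all windows) nor its core TGACG, which the full element contains (20.8%), occurred in any of the 8. A match says only that the letters are present.

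Among the subunit genes, Inha encodes the alpha subunit that every inhibin shares. On the log2 scale its level was 13.42, 13.36 and 13.38 in hCG-6h samples 1, 2 and 3, against 13.41, 13.49 and 13.49 in the hCG-0h samples. The groups overlap, and the log2 change of -0.08 ± 0.09 (SE) did not pass (adjusted p = 0.629). Its 95% interval, from -0.30 to 0.14, leaves room for a difference of at most 1.23-fold. The highest values of the arrays were 14.53 to 14.60, and probes as bright as those of Inha may respond less than fully to a change in transcript. The same may hold for the brighter probe sets of Inhba and Inhbb, described below.

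Inhba, which encodes the beta A subunit of activin A and inhibin A, was likewise level between the groups within its error. Its signal was 13.21, 13.10 and 13.18 at hCG-6h, against 13.02, 13.13 and 12.97 at hCG-0h, and only hCG-0h sample 2 reached the range of the hCG-6h samples. The log2 change was 0.12 ± 0.10 (SE, adjusted p = 0.455), with a 95% interval of -0.11 to 0.36. A second probe set, at 6.19 ± 0.20 at hCG-6h and 6.04 ± 0.27 at hCG-0h (SD, n = 3 each), did not pass either.

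Inhbb, which encodes the beta B subunit of activin B and inhibin B, fell. Its brighter probe set read 11.63, 11.61 and 11.71 at hCG-6h, against 13.43, 13.54 and 13.37 at hCG-0h. The samples of each group lay close together and the groups far apart. The log2 change was -1.80 ± 0.10 (SE), a level 3.47-fold lower (adjusted p = 7.8e-05), and ranked 267 by size among the falls of all genes. The other probe set read 8.93, 9.22 and 9.0 at hCG-6h, against 11.49, 11.60 and 11.31 at hCG-0h. There the log2 change was -2.42 ± 0.13 (SE), or 5.34-fold lower (adjusted p = 0.000118 in the fit over all 34958 probe sets). The fall was called under all 15 other settings. The 95% interval for Inhbb, -2.03 to -1.56, did not reach that for Inhba, though the difference between the subunit genes was not itself tested.

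The binding proteins moved less. Fst encodes follistatin, which binds activin almost irreversibly. Its signal was 12.28, 12.18 and 12.30 at hCG-6h, against 12.57, 12.72 and 12.71 at hCG-0h, and the groups did not overlap. The log2 change of -0.41 ± 0.10 (SE) passed (adjusted p = 0.0283), but the call ended without any 1 sample other than hCG-0h sample 1 (log2 changes of -0.44 to -0.38, adjusted p = 0.0650 to 0.0912, within a range of 0.0011 to 0.246 over all other settings). The second probe set of Fst read 11.90 ± 0.03 at hCG-6h and 12.06 ± 0.13 at hCG-0h (SD, n = 3 each) and did not pass (adjusted p = 0.397).

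Fstl3, a relative of follistatin that also binds activins, was read by 1 probe set. It stood at 8.20, 8.48 and 7.96 at hCG-6h, against 6.88, 7.26 and 8.18 at hCG-0h. Thus hCG-0h sample 3 lay among the hCG-6h samples while the other hCG-0h samples lay below all of them. The log2 change was 0.77 ± 0.33 (SE) and did not pass (adjusted p = 0.159). Without hCG-0h sample 3 it was 1.14 and passed (adjusted p = 0.0172, the lowest of a range that reaches 0.480 over the other settings), and without hCG-0h sample 1 it was 0.49 (adjusted p = 0.344).

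The activin receptors gave no call that held. Acvr1b, the type I receptor, read 8.17, 8.47 and 8.37 at hCG-6h, against 8.84, 7.80 and 8.22 at hCG-0h, and the hCG-0h samples enclosed all of the hCG-6h samples. Its log2 change was 0.05 ± 0.26 (SE, adjusted p = 0.923), and the second probe set differed by -0.08 ± 0.16. With a 95% interval of -0.56 to 0.66, the brighter probe set leaves room for a rise of up to 1.59-fold.

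The type II receptor genes were read differently by their own probe sets. For Acvr2a the brighter one read 9.17, 9.43 and 9.56 at hCG-6h, against 9.27, 9.73 and 9.43 at hCG-0h, and the groups overlapped (log2 change -0.09 ± 0.16, SE, adjusted p = 0.761). The other read 9.01, 8.79 and 8.98 at hCG-6h, against 9.33, 9.46 and 9.49 at hCG-0h, without overlap, and passed as lower (log2 change -0.50 ± 0.12, adjusted p = 0.0274 in the fit over probe sets). This call was lost without some samples (adjusted p = 0.0401 to 0.0850 with each left out) and with the sample number as a block (adjusted p = 0.0753). For Acvr2b, the brightest probe set read 8.45, 8.50 and 8.50 at hCG-6h, against 7.96, 7.78 and 8.22 at hCG-0h. All of its hCG-6h samples were higher (log2 change 0.50 ± 0.13, SE, adjusted p = 0.0400 in the fit over genes and 0.0507 in that over probe sets). A second one read 7.25, 7.28 and 7.25 at hCG-6h, against 7.91, 7.71 and 7.54 at hCG-0h, all of them lower (log2 change -0.46 ± 0.13, SE, adjusted p = 0.0490 in the fit over probe sets). That lower call was also lost without some samples (adjusted p = 0.0440 to 0.122 with each left out) and with the sample number as a block (adjusted p = 0.0952). The third, at 6.81 ± 0.30 at hCG-6h and 6.23 ± 0.61 at hCG-0h (SD, n = 3 each), did not pass. The gene-level call for Acvr2b was lost without any 1 sample other than hCG-0h sample 3 (log2 changes of 0.39 to 0.51, adjusted p = 0.0904 to 0.106). Where these probe sets lie on the transcripts was not analysed here.

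**Figure D2:**
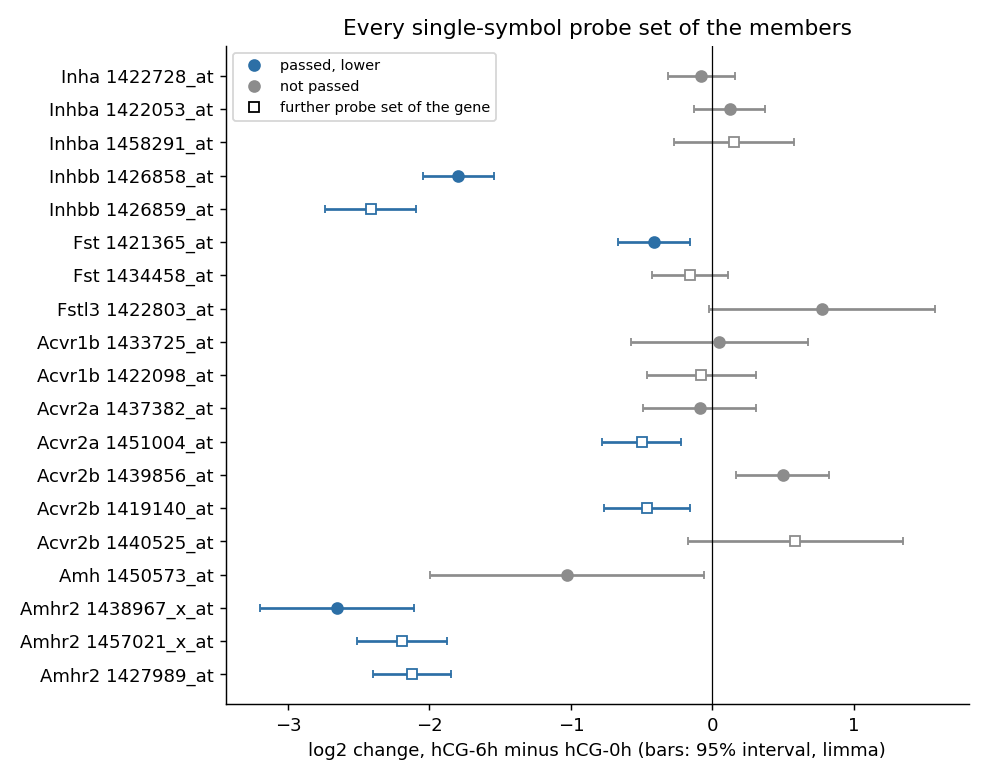
Log2 change, hCG-6h minus hCG-0h, of all 19 probe sets of the 10 genes with 95% intervals from limma, coloured by the test over 34958 probe sets. Filled circles mark the brightest probe set of a gene and open squares its further ones. Both probe sets of Inhbb and all 3 of Amhr2 lie between -2.65 and -1.80, while the probe sets of Acvr2b fall on both sides of 0.

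Amh encodes the hormone that marks cumulus cells and the granulosa of growing follicles. It read 7.80, 7.33 and 8.25 at hCG-6h, against 8.99, 8.00 and 9.47 at hCG-0h. The samples spread widely in both groups, and hCG-0h sample 2 lay below hCG-6h sample 3. The log2 change of -1.03 ± 0.40 (SE) did not pass (adjusted p = 0.127). The change was -1.44 and passed without hCG-0h sample 2 (adjusted p = 0.0275), and was -0.70 without hCG-0h sample 3 (adjusted p = 0.297), in a range of 0.0163 to 0.386 over the other settings.

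Amhr2, the type II receptor that binds this hormone, fell the most of the 10 genes. Its brightest probe set read 9.31, 8.62 and 9.46 at hCG-6h, against 11.90, 11.66 and 11.79 at hCG-0h. All hCG-6h samples lay more than 2 log2 units below every hCG-0h sample. The log2 change was -2.65 ± 0.22 (SE), or 6.29-fold lower (adjusted p = 0.000375), and ranked 88 by size among the falls of all genes. This probe set and another carry the x suffix, by which the maker of the array marks probes that may also match other transcripts. The probe set without that suffix read 8.79, 8.85 and 8.70 at hCG-6h, against 10.94, 10.77 and 11.0 at hCG-0h, a log2 change of -2.12 ± 0.11 (SE, adjusted p = 0.000108). The remaining one gave -2.20 ± 0.13 (SE). The fall was called under all 15 other settings.

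Counted by probe set, 8 of the 19 passed and all 8 were lower, against 18.7% of all single-symbol probe sets passing, 9.43% lower and 9.28% higher. The 8 are not independent, since 5 of them measure Inhbb and Amhr2. In 9 of the 19 the groups did not overlap, against 36.3% of all. Left out in turn, the samples moved Inhbb only between -1.84 and -1.75 on the log2 scale and Amhr2 between -2.82 and -2.40.

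**Figure D3:**
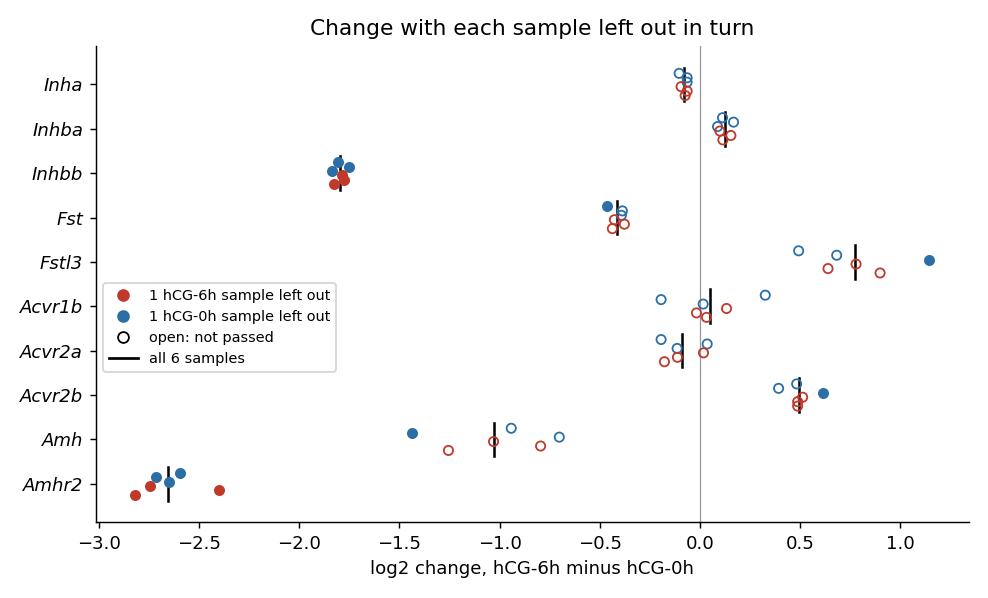
Log2 change, hCG-6h minus hCG-0h, of each gene with 1 sample left out at a time (red, an hCG-6h sample; blue, an hCG-0h sample), filled where the adjusted p was under 0.05 and open where it was not. Black lines give the change with all 6 samples. Inhbb and Amhr2 keep all 6 points filled, Fst and Acvr2b keep 1 each, and Amh and Fstl3 gain 1 each.

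The other genes of these pathways were described by 5 lists with 66 measured genes. Among 19 ligands, co-receptors and antagonists outside the 10 genes, 2 rose, 3 fell and 14 did not pass, with a median log2 change of -0.04. Tgfbr3 encodes betaglycan, the co-receptor that lets inhibin compete with activin for the type II receptors. It read 6.42, 7.35 and 7.14 at hCG-6h, against 10.24, 10.11 and 10.34 at hCG-0h, and fell in both of its probe sets. The groups lay far apart, with a fall of 9.58-fold (log2 change -3.26 ± 0.24, SE, adjusted p = 0.000211). Fstl1, a secreted relative of follistatin, rose 11.0-fold, to 10.41, 10.31 and 10.57 at hCG-6h, against 6.96, 6.99 and 6.95 at hCG-0h (adjusted p = 1.2e-05), though 1 of its 2 probe sets did not pass and the mean of both gave a log2 change of 2.14 in place of 3.46. Grem1, the BMP antagonist gremlin, rose 3.65-fold. Chrdl1, another BMP antagonist, was 2.58-fold lower in its brightest probe set, the 1 of 4 that passed (log2 change -1.37, or -0.72 with the mean of its probe sets), a call that ended without any 1 sample other than hCG-0h sample 3 (adjusted p = 0.0635 to 0.117). The third that fell was Tdgf1, a co-receptor of the nodal ligand, 2.16-fold lower. The other beta subunit genes, Inhbc and Inhbe, stayed dim, at 3.90 ± 0.10 and 4.41 ± 0.16 at hCG-6h and 3.99 ± 0.34 and 4.55 ± 0.23 at hCG-0h (SD, n = 3 each).

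In the arm that carries the activin signal, 4 of 17 genes rose, 1 fell and 12 did not pass (median log2 change 0.11). Pmepa1, which dampens SMAD signalling, rose 3.50-fold, Smad7, an inhibitory SMAD, 2.91-fold, and Ldlrad4, a relative of Pmepa1, 2.17-fold. Only 1 of the 4 probe sets of Ldlrad4 passed, and its log2 change was 0.51 with the mean of its probe sets in place of 1.12. Other inhibitors in the list, Ski, Skil, Smurf1 and Smurf2, did not pass (log2 changes -0.12, 0.45, -0.43 and 0.0033). Smad3 rose 1.55-fold and passed narrowly (adjusted p = 0.0368). With the sample number as a block or with the mean of probe sets, 3 genes of this arm were higher, and Smad3 was not among them. The other carriers Smad2 and Smad4 did not pass (log2 changes 0.08 ± 0.21 and -0.34 ± 0.13, SE), though the groups of Smad4 did not overlap. Tgif1, a co-repressor, was 1.86-fold lower.

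On the AMH side, 2 of the 7 genes for type I receptors and SMADs rose, 1 fell and 4 did not pass (median log2 change 0.51). Acvr1, a type I receptor that can pair with AMHR2, read 10.15, 10.29 and 10.48 at hCG-6h, against 9.01, 9.22 and 8.80 at hCG-0h, and was 2.46-fold higher (adjusted p = 0.00137, in 1 of its 3 probe sets). Bmpr1b, another type I receptor, read 10.29, 9.86 and 9.97 at hCG-6h, against 11.38, 11.51 and 11.45 at hCG-0h, and was 2.65-fold lower, with all 3 of its probe sets passing as lower (adjusted p = 0.000654). These receptor genes moved in opposite directions without overlap of their groups, while Bmpr1a, the third of the type I receptors in the list, did not pass (log2 change -0.19 ± 0.12, SE). Smad1, a carrier of the signal, rose 2.18-fold, with 2 of its 3 probe sets passing. It missed the threshold with hCG-6h sample 1 alone (adjusted p = 0.0718, the highest of a range from 0.0026 over its other settings).

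Transcription factors known to act on Inha, Inhba or Amh were mixed, with 3 of 16 higher, 5 lower and 8 not passing (median log2 change -0.30). Sox9, an activator of Amh in the testis, rose 11.3-fold in its brightest probe set, which read 8.75 ± 0.03 at hCG-6h and was dim at hCG-0h (5.26 ± 0.35, SD, n = 3 each). Only 1 of its 3 probe sets passed, and the mean of all 3 gave a log2 change of 1.61 in place of 3.50. Crem, whose inducible form ICER represses Inha in rat granulosa cells, rose 8.82-fold in its brightest probe set (log2 change 3.14, or 1.78 with the mean of its probe sets). Of its 4 probe sets 2 passed, and the probe sets were not assigned to that form here. Cebpb rose 2.67-fold. Those that fell were Nr0b1 at 4.36-fold lower, Nr5a2 at 2.96-fold lower, Wt1 at 2.68-fold lower, Esr2 at 1.72-fold lower and Nr5a1 at 1.31-fold lower. Of these, Wt1 was dim (5.01 ± 0.48 at hCG-6h and 6.43 ± 0.35 at hCG-0h, SD, n = 3 each). Without the dimmest 1 in 3 genes, 4 factors were lower in place of 5. Foxl2 and Gata4, factors of granulosa identity, did not pass. Neither did Fos, Egr1 and Jun, at 2.30-fold, 2.06-fold and 2.03-fold higher without overlap of their groups (adjusted p = 0.163, 0.0702 and 0.0732). Each was lowest in hCG-0h sample 3, at 10.14, 11.05 and 11.11. Creb1 was likewise higher and Sox8 lower without overlap, and neither passed. Without hCG-0h sample 3, 6 of these genes were higher in place of 3.

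In a list of convertases and matrix proteases, enzymes that cut ligand precursors, 5 of 7 rose, none fell and 2 did not pass (median log2 change 1.61). The list was not limited to enzymes that act on the inhibin, activin or AMH precursors. Furin, a convertase that cleaves many precursors of the ligand family of activin and AMH, was 3.05-fold higher (adjusted p = 0.000238). It read 11.28, 11.38 and 11.40 at hCG-6h, against 9.67, 9.62 and 9.95 at hCG-0h. Pcsk5 rose 6.45-fold in its brightest probe set, with all 5 of its probe sets passing as higher, and Pcsk6, a related convertase, rose 3.34-fold. Tll1 and Bmp1, metalloproteases of 1 family, rose 8.59-fold and 1.55-fold, with Tll1 near the floor of the arrays at hCG-0h (3.30 ± 0.26). The shares of these lists that passed can be read against the 21.3% of all genes, and no list was tested as a whole.

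**Figure D4:**
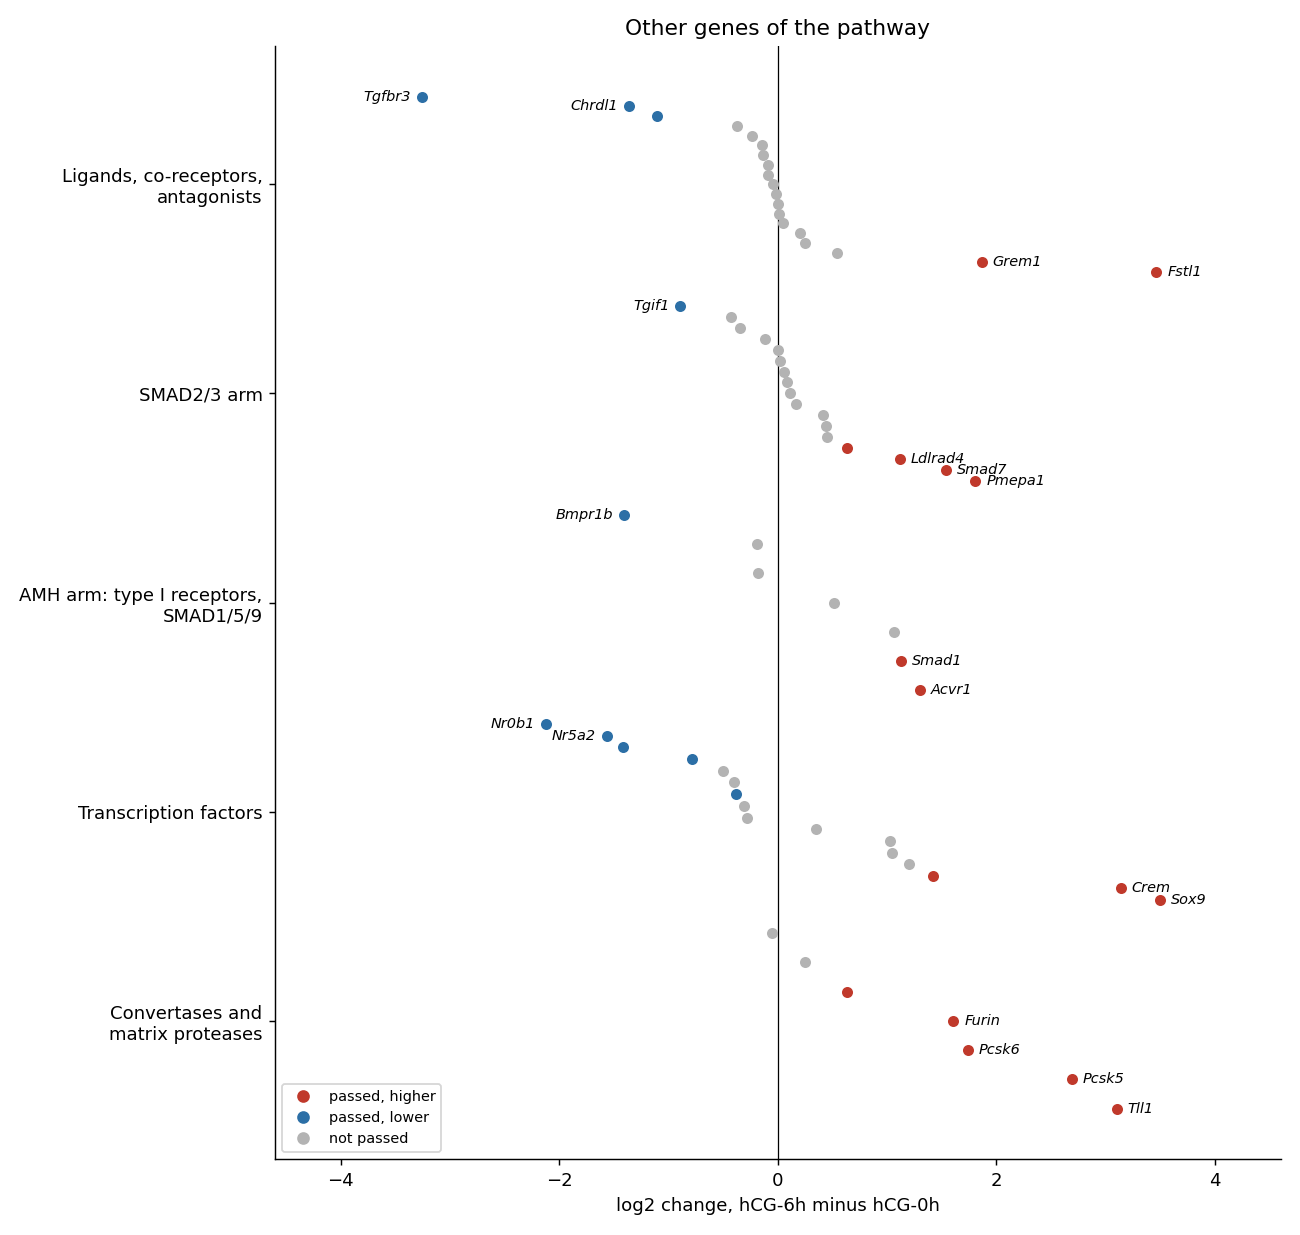
Log2 change, hCG-6h minus hCG-0h, of each gene in the 5 pathway lists, with genes of a list ordered from lowest to highest down the page and up to 4 of those that passed named. Red points passed as higher, blue points as lower and grey points did not pass. Tgfbr3 stands at -3.26 and Fstl1 at 3.46, and no convertase or matrix protease lies among the blue points.

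For each of the 4 genes past the threshold, the genes with the most similar profile were those with the smallest root mean square difference over the 6 samples, after each profile was centred on its own mean. For Inhbb they were Mex3c and Syce2 (0.06 log2 units each), and for Amhr2 they were Lrmda and Cryl1 (0.15 each). For Fst they were Mfsd2b and Trim44 (0.01 and 0.03), and for Acvr2b they were Grpel2 and Pdlim5 (0.05 and 0.06). With 2 groups of 3 samples, such likeness mostly reflects the shared size of the group difference.

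Of 8 measured markers of the granulosa lineage, to which cumulus cells belong, 6 were lower at hCG-6h, none was higher, and Foxl2 and Gja1 did not pass. Their summed signal on the linear scale was 17753 to 18621 at hCG-6h, against 29122 to 30820 at hCG-0h, so it moved with Inhbb, Amhr2 and Tgfbr3, and its part in those results was not tested. A large part of that sum came from the brightest marker, Gja1 (means of 13.48 at hCG-6h and 13.60 at hCG-0h). In a bulk sample, fewer cells of a type and less RNA per cell cannot be told apart. Because the extraction protocol speaks of whole complexes, 14 oocyte markers were read as well. Their sum was 1062 to 1169 at hCG-6h, against 702 to 885 at hCG-0h, and 1 of them, Ooep, rose 3.82-fold. Over all 14, the means ran from 3.63 to 8.47 at hCG-6h and from 3.68 to 7.07 at hCG-0h. Of these, 9 at hCG-6h and 10 at hCG-0h were among the dimmest 1 in 3 of all genes. They included the 3 zona pellucida genes and Bmp15, whose means lay between 3.63 and 4.97 in both groups. Dppa3 was 1.94-fold higher and Bcl2l10 1.37-fold lower without overlap of the groups, and neither passed (adjusted p = 0.0851 and 0.0862). None of 7 theca and stroma, 8 leukocyte and 6 endothelial markers passed, and the summed signals of the theca and leukocyte lists overlapped between the groups. The leukocyte genes Cd3e and Cd79a were 1.90-fold higher and 1.30-fold lower without overlap of the groups (adjusted p = 0.0651 and 0.0816). The endothelial sum was 373 to 580 at hCG-6h, against 198 to 379 at hCG-0h. The groups did not overlap for the endothelial genes Cdh5 and Kdr (log2 changes 1.63 ± 0.48 and 0.67 ± 0.26, SE, adjusted p = 0.0530 and 0.117). Of 4 genes of red blood cells, Hbb-b2 was 7.67-fold higher and Alas2 2.54-fold lower. The sum of the 4 was 3480 to 3664 at hCG-6h, against 3907 to 4065 at hCG-0h. That sum rests mostly on the brightest of them, Hba-a2, which did not pass (means of 11.67 at hCG-6h and 11.88 at hCG-0h). The part of the oocyte, endothelial and red cell markers in the results was not tested.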

How the data were processed

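The authors deposited 1 table of log2 values with 2 decimals for 45101 probe sets and 6 arrays. Per the submitters' processing notes, GCOS, Affymetrix Expression Console 1.1 and RMA were used, which subtracts background, normalises quantiles and summarises the probes of a set. Dim genes are compressed toward a floor, so their folds are approximate. Per the labels' protocols, RNA was amplified with a kit for very small amounts before labelling. Detection calls were not used, and the build was not given in the sources used here. Array medians were 6.43 to 6.46 and the lowest values 2.43 to 2.48. The number of arrays limits the precision.

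The 34958 probe sets with 1 symbol in the platform annotation were used (932 had several and 9211 were not listed). Each gene was read from the probe set with the highest mean over the 6 arrays. Groups were compared in R 4.3.3 by the lmFit and eBayes functions of limma 3.58.1, with group as the only term, two-sided, with Benjamini-Hochberg adjustment over 18194 genes and a threshold of 0.05. All probe sets were fitted likewise, adjusted over 34958. Each log2 change is the hCG-6h mean minus the hCG-0h mean, with limma's SE, and folds are 2 to the power of their size. The scripts were tested on simulated data. A sum of markers adds the signals after they are taken off the log scale.

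Named genes are the 10 members, up to 4 genes with the largest changes among those that passed in each pathway list, and for each member past the threshold the 2 nearest profiles. Tdgf1, Smad3, Cebpb, Wt1, Esr2, Nr5a1, Bmp1, the genes named as not passing and the single markers were named after their values were seen. Members and lists were chosen with earlier results of these data known. The other settings were a fit blocked on sample number, eBayes with trend and robust options, a further quantile normalisation, median-centred arrays, removal of the dimmest 1 in 3 genes, weights per array, averaged probe sets of each gene, probe sets fitted on their own, all probe sets of the array, hCG-6h sample 1 alone, and each sample left out in turn.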

Additional observations from a re-analysis of the deposited data

How the results depend on the processing

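The calls for Inhbb and Amhr2 kept their direction and side of the threshold under all 15 other settings, and Inha and Inhba missed it under all of them. The count of lower genes among the 10 was 2 to 3 with each sample left out, and the count of higher genes 0 to 2. That count of higher genes was 0 with the sample number as a block, with a trend and robust variance, with the mean of probe sets, with probe sets fitted on their own and with hCG-6h sample 1 alone. Same-numbered samples deviated together hardly at all (correlations of 0.01, -0.02 and 0.03 over genes), and hCG-6h sample 2 did not correlate best with its own number. The labels do not say that numbers pair samples. The replicate block gave 3264 called genes against 3874 without it, and under it Fst and Acvr2b missed the threshold (adjusted p = 0.0785 and 0.0716) while Amh passed (adjusted p = 0.0163). Among probe sets of the 10 genes, 5 to 7 were lower and 0 to 2 higher with each sample left out, 1 was higher with arrays centred, without the dimmest 1 in 3 or with array weights, and 5 were lower with hCG-6h sample 1 alone. That last setting gave 1577 called genes, 1 lower ligand, co-receptor or antagonist, 1 higher gene in the SMAD2/3 arm and 1 in the AMH arm, 3 lower transcription factors and 3 higher enzymes. Higher transcription factors were 3 to 6 with each sample left out and 5 with a trend and robust variance. The other list counts with each sample left out were 2 to 3 lower and 2 to 3 higher for ligands, co-receptors and antagonists, 3 to 4 higher for the SMAD2/3 arm, 2 to 3 higher for the AMH arm, 4 to 5 lower for transcription factors and 5 higher for the enzymes. Signs turned only for receptor probe sets that never passed. Acvr1b was -0.013 with the mean of probe sets, -0.12 with hCG-6h sample 1 alone and between -0.19 and 0.33 with each sample left out (its second probe set 0.21 with hCG-6h sample 1 alone and between -0.22 and 0.067). Acvr2a was between -0.19 and 0.037 with each sample left out. With the mean of probe sets, the log2 changes of Sox9, Crem, Fstl1, Ldlrad4 and Chrdl1 were 1.61, 1.78, 2.14, 0.51 and -0.72, the last no longer past the threshold (adjusted p = 0.0571). With hCG-6h sample 1 alone, Smad1, Smad7, Ldlrad4 and Pcsk6 missed the threshold (adjusted p = 0.0718, 0.0784, 0.0997 and 0.0612). The causes of these shifts were not tested.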
